A study of Mus musculus with 12 samples.

Results

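NQO1 is the classical reporter gene of NRF2, the main transcription factor of the antioxidant response, and its mouse gene Nqo1 is described here with 9 further genes of the same pathway: Nfe2l2, Keap1, Hmox1, Gclm, Gclc, Slc7a11, Txnrd1, Srxn1 and G6pdx. The 10 genes were chosen by name, out of 27503 in the deposited table, and Nqo1 was selected from its higher level in mutant than in wild-type cells, so its line difference is given as a description without a test. The question was whether the other 9 genes moved with it. All 10 passed the filter on low counts, which kept 17590 genes.

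The cells were B16F10, a transplantable mouse melanoma line. They carried IRF7, a transcription factor of the type I interferon response, either with alanine in place of a cysteine (IRF7-C435A, the mutant line) or as wild type (WT). The 4 groups, with 3 libraries each, were mutant cells given interferon alpha (IFNα), mutant control cells, WT cells given IFNα and WT control cells. The sources used here do not give how the mutant line was made, whether it is 1 clone, what the controls received, or the dose and duration of IFNα. Separate cultures are not named in the labels, and the spread behind every p-value may therefore be technical.

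In the textbook pathway KEAP1 holds NRF2 in the cytoplasm and, with the CUL3 ubiquitin ligase, has it degraded. Electrophiles and oxidants modify cysteines of KEAP1, NRF2 then accumulates in the nucleus, pairs with small MAF proteins and binds antioxidant response elements in front of its target genes. The targets make and recycle glutathione and thioredoxin, supply NADPH, degrade heme and detoxify quinones. NRF2 is controlled mostly as a protein, so the transcript level of Nfe2l2 is not a measure of its activity. In melanoma cells the pathway also stands beside melanin synthesis, which yields quinones.

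The 250 bases before the RefSeq start site of Nqo1 and of Srxn1 are shown because they differ in the letters of the antioxidant response element. A search covered the core TGACNNNGC and the related TGAGNNNGC on both strands. Capitals mark the matches, which are not known to be occupied in these cells. The Nqo1 stretch is chr8:107403206-107403455 and the Srxn1 stretch chr2:152105274-152105523, both in GRCm38.p6, the first on the minus and the second on the plus strand.
Nqo1: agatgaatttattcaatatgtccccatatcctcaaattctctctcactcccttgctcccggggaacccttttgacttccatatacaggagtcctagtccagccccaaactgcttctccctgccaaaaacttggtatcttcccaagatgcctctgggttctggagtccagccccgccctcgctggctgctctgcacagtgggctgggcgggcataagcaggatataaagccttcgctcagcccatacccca
Srxn1: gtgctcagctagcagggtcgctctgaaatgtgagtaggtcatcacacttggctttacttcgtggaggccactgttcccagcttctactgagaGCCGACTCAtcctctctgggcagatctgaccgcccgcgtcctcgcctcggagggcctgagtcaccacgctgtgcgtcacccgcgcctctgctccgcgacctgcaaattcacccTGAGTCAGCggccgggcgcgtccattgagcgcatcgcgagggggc

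The Nqo1 stretch held 0 matches to either form, and the Srxn1 stretch held 2 matches to TGAGNNNGC. One lay 158 to 150 bases before the start site on the minus strand, and the other 45 to 37 bases before it on the plus strand. A missing match says only that these letters are not in this window. The 1 match in each of 5 further genes is shown with up to 15 bases on either side, read along the strand that holds it, so that the cores can be compared.
Gclm: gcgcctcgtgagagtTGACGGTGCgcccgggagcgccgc
Txnrd1: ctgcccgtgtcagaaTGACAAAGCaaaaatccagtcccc
Nfe2l2: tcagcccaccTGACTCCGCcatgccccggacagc
G6pdx: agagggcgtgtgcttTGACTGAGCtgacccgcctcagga
Slc7a11: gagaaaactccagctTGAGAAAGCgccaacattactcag

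The first 4 of these hold TGACNNNGC and the fifth TGAGNNNGC, and the Txnrd1 match belongs to the second of its 3 start sites. Keap1 held 0 matches. Of the 10 windows belonging to the 8 genes found in the RefSeq table (all but Hmox1 and Gclc), 6 (60%) held either form, against 23% of all 32851 promoter windows. TGACNNNGC alone was in 10.2% and TGAGNNNGC in 14.4% of all windows. The core TNGCGTG, to which the dioxin receptor AHR binds and through which Nqo1 is known to be induced, was in 4.1% of all windows and in 0 places of the Nqo1 stretch.

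The series as a whole needs a few facts. Library totals ranged over 60511573 to 75927461 counts. Irf7 itself was lower in the mutant line, at -1.23 on the log2 scale in controls (adjusted p = 0.0057) and -0.62 with IFNα (adjusted p = 0.113). Counts scaled to a common library size are given as CPM. The 7 melanoma markers summed to 7025 to 7423 CPM in mutant IFNα and 7021 to 8006 in mutant control libraries. They summed to 7853 to 9374 CPM in WT IFNα and 7861 to 8457 in WT control libraries. Transcripts of lung epithelium, which cultured melanoma cells should lack, summed to 42.4 to 65.4 CPM over 7 markers in 8 libraries and to at most 0.228 CPM in the other 4. The 8 are all mutant control and all WT IFNα libraries, mutant IFNα library 3 and WT control library 1, so these transcripts are unevenly spread over the groups. Leukocyte markers summed to 77.3 to 108 CPM in mutant IFNα, 127 to 142 in mutant control, 74.9 to 112 in WT IFNα and 79.9 to 117 in WT control libraries.

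Nqo1 encodes NAD(P)H quinone dehydrogenase 1, which reduces quinones in a single step to hydroquinones. The gene lies on chromosome 8 at 108114857 to 108129838, minus strand, as deposited. Nqo1 reached 8.48, 8.02 and 8.24 FPKM (fragments scaled to transcript length and library size) in mutant IFNα libraries and 7.22, 7.56 and 5.69 FPKM in mutant controls. WT IFNα libraries had 0.573, 1.08 and 0.463 FPKM, and WT controls 1.09, 0.662 and 0.489 FPKM. All 6 mutant libraries lay above all 6 WT libraries, the lowest mutant one being 5.69 FPKM and the highest WT one 1.09 FPKM. The counts behind these levels were 588 to 1007 in the mutant line and 54 to 130 in WT, so that the gene was detected in every library.

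In fold terms Nqo1 was 9.62 times as high in the mutant line among controls (log2 3.27, SE 0.340) and 12.3 times as high with IFNα (log2 3.62, SE 0.344). Averaged over both treatments the difference was log2 3.44 with 95% limits of 2.92 and 3.96. These are the values that chose the gene and they carry no test. Among 9575 genes with a mean of at least 1 FPKM the increase ranked 5 in controls, 2 with IFNα and 3 in the mean of both. In order of level the groups were mutant IFNα (8.25 ± 0.227 FPKM), mutant control (6.82 ± 0.992), WT control (0.748 ± 0.310) and WT IFNα (0.707 ± 0.332; SD, n = 3 each). The 2 WT groups do not differ beyond their spread. In the mutant line the gene stood at percentile 76.5 of all tested genes with IFNα and 74.6 in controls, and in WT at percentile 39.7 and 41.1.

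IFNα did not move Nqo1 past the threshold in either line. This contrast is not the line difference that chose the gene, but it uses the same libraries. The mutant line gave 0.25 on the log2 scale with 95% limits of -0.40 and 0.90 (edgeR adjusted p = 0.816), although its 3 IFNα libraries lay above its 3 controls. The WT line gave -0.10 with limits of -0.82 and 0.61 (edgeR adjusted p = 1), and its libraries overlapped. Lung transcripts were lacking only in mutant IFNα libraries 1 and 2 and WT controls 2 and 3. Nqo1 stood at 8.48 and 8.02 FPKM in the former and at 0.662 and 0.489 FPKM in the latter. Line and treatment change together among these libraries, so they give no line comparison within 1 treatment. Within the 8 libraries that hold lung transcripts, a subset chosen after seeing the data, the line difference of Nqo1 was 2.67 in controls and 3.63 with IFNα on the log2 scale. Each value rests on a single library on 1 side. Of the WT control group the subset keeps only library 1, the highest WT library for Nqo1 at 1.09 FPKM. Of the mutant IFNα group it keeps only library 3.

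**Figure D1:**
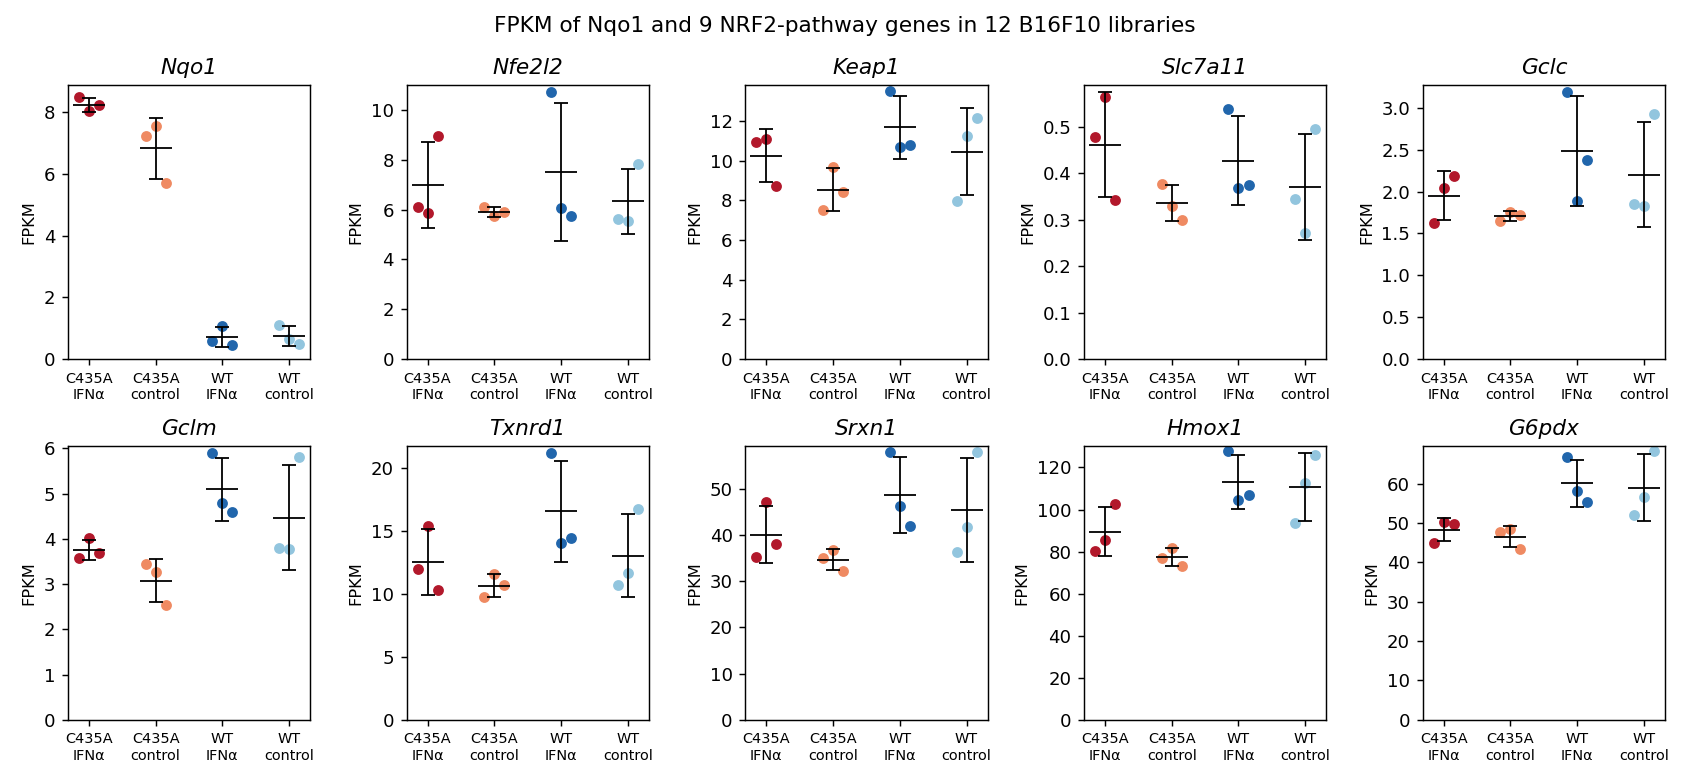
FPKM (vertical axes, from 0) of the 10 genes in the 12 libraries; points are libraries, bars the mean and SD of 3, and groups run from mutant (C435A) with IFNα at the left to WT control at the right. Nqo1 separates the lines, at 5.69 FPKM or more in mutant and 1.09 or less in WT libraries. Of the other genes only G6pdx also separates all 6 mutant from all 6 WT libraries, with the mutant line lower.

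None of the 9 other genes was called higher in the mutant line, in either treatment. By edgeR (quasi-likelihood, p-values adjusted by Benjamini-Hochberg over all 17590 genes), 0 of 9 passed the threshold of 0.05 in controls, where 0.165% of all genes did. With IFNα again 0 of 9 passed, against 0.597% of all genes, and in the mean of both treatments 0 of 9, against 2.8%. At an unadjusted p under 0.05 there were 3 of 9 in controls (10.7% of all genes), 2 with IFNα (13.7%) and 4 in the mean (18.1%), and every one of them was lower in the mutant line.

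Most of the 9 estimates lay slightly below 0, 8 in controls, 7 with IFNα and 7 in the mean. In controls this was 6 with a term for lung transcripts, and 6 in the 8 libraries that hold them. Their median log2 difference was -0.24 in controls, -0.22 with IFNα and -0.23 in the mean, where the median of all tested genes was 0.00, -0.01 and -0.00. The medians of the 7 melanoma markers were also below 0, at -0.16, -0.32 and -0.19. The estimates of the 9 genes ran over -0.42 to 0.01 in controls and -0.34 to 0.22 with IFNα. The upper 95% limit was under a 2-fold rise for all 9 genes in each line comparison, and under a 1.5-fold rise for 9 in controls, 8 with IFNα and 9 in the mean. The exception with IFNα was Slc7a11. DESeq2 called Hmox1 alone of the 9 in controls (1.26% of all genes), 0 with IFNα (4.02%) and 3 in the mean (Hmox1, Gclm and G6pdx; 7.29%), all lower in the mutant line. Limma on FPKM, where 8 of the 9 passed the FPKM filter, called 0 (0.347%), 0 (0.555%) and 1 (Hmox1; 3.93%), the last also lower.

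**Figure D2:**
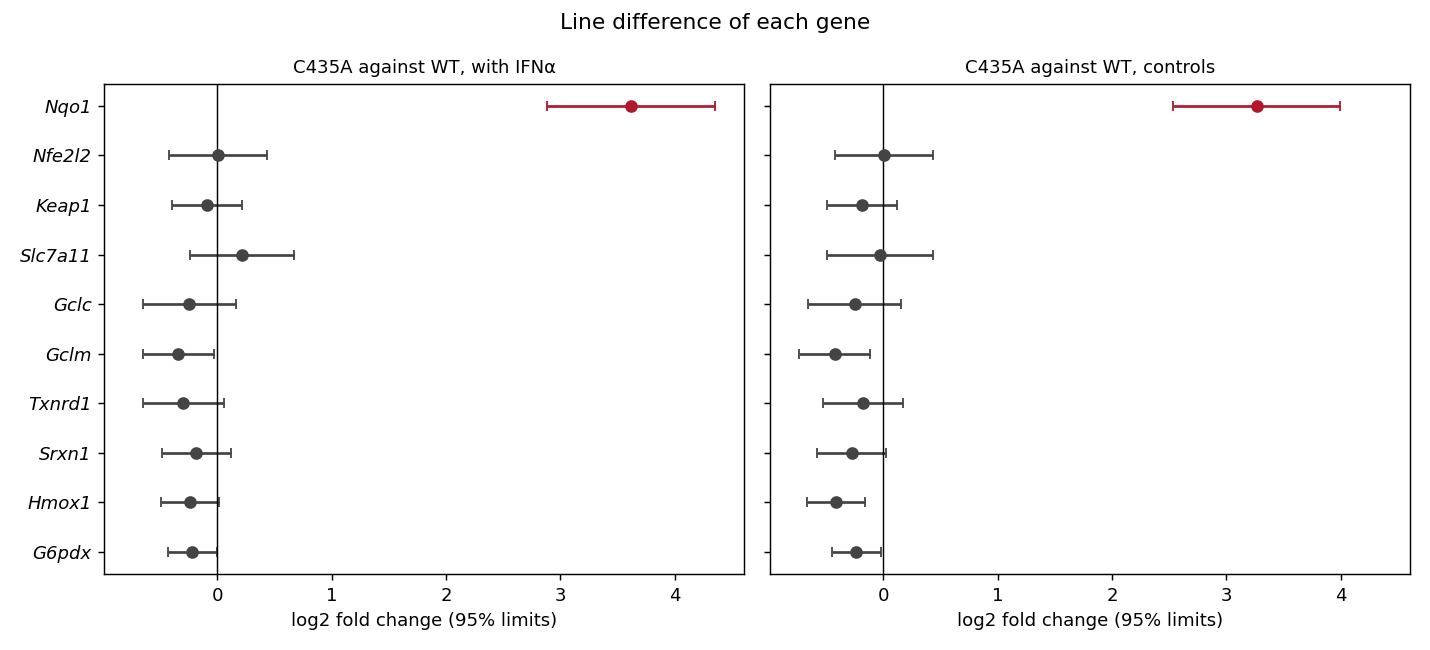
Log2 fold change of mutant (C435A) over WT cells with 95% limits (horizontal axis), with IFNα at the left and in controls at the right, one row per gene. Nqo1 stands at 3.62 and 3.27; the other 9 lie between -0.34 and 0.22 with IFNα and between -0.42 and 0.01 in controls.

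The genes of the switch itself did not pass in any comparison. Nfe2l2, which encodes NRF2, had 6.09, 5.86 and 8.97 FPKM in mutant IFNα libraries and 6.10, 5.73 and 5.89 in mutant controls. It had 10.7, 6.07 and 5.75 FPKM in WT IFNα libraries and 5.61, 5.54 and 7.84 in WT controls. The lines overlapped in both treatments, and 1 library stood well above the others in each of 3 groups. The difference in the mean of both treatments was 0.01 ± 0.141 (log2 ± SE; 95% limits -0.29 and 0.31; edgeR adjusted p = 0.983).

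Keap1, whose protein captures NRF2 for degradation, averaged 10.3 ± 1.32 FPKM in mutant IFNα, 8.52 ± 1.08 in mutant control, 11.7 ± 1.59 in WT IFNα and 10.4 ± 2.18 in WT control libraries (SD, n = 3 each). The mutant line ranged over 7.49 to 11.1 FPKM and the WT line over 7.98 to 13.5, so they overlapped almost throughout. Its line difference was -0.14 ± 0.102 (95% limits -0.36 and 0.08; edgeR adjusted p = 0.511).

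Of 17 further genes that control NRF2 (ligase subunits, related and competing factors, small MAFs, kinases and coactivators), 16 were tested. In edgeR 0 passed in any line comparison, and 0, 2 and 3 had an unadjusted p under 0.05 in controls, with IFNα and in the mean, where 10.7%, 13.7% and 18.1% of all genes did. These counts are near or below that background. DESeq2 called 0, 1 (higher in the mutant line) and 0 of them, against 1.26%, 4.02% and 7.29% of all genes. Limma called 0 of the 11 that passed its FPKM filter in each, against 0.347%, 0.555% and 3.93%. The smallest p with IFNα belonged to Maff, a small MAF partner of NRF2, at 0.58 ± 0.171 (edgeR adjusted p = 0.145), followed by the coactivator Crebbp at 0.70 ± 0.311 (0.342) and Cand1, an exchange factor of cullin ligases, at -0.24 ± 0.135 (0.459). The same 3 genes led in the mean of both treatments, at 0.59 ± 0.221 for Crebbp, -0.24 ± 0.0955 for Cand1 and 0.29 ± 0.121 for Maff. In controls the smallest p-values were those of Rbx1 (0.33 ± 0.154), Dpp3 (-0.26 ± 0.129) and Fbxw11 (-0.27 ± 0.139), with edgeR adjusted p from 0.466 to 0.516.

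Hmox1, the inducible heme oxygenase and the most abundant of the 10 transcripts, was lower in the mutant line by a margin close to the threshold. It had 80.4, 85.5 and 102 FPKM in mutant IFNα libraries and 77.0, 81.8 and 73.1 in mutant controls. WT IFNα libraries had 128, 104 and 107 FPKM, and WT controls 93.5, 113 and 126. In FPKM the lines did not overlap within either treatment, though mutant IFNα library 3 lay above WT control library 1. After TMM scaling they overlapped with IFNα. The log2 difference was -0.41 ± 0.118 in controls (edgeR adjusted p = 0.228), -0.24 ± 0.118 with IFNα (0.397) and -0.33 ± 0.0835 in the mean (0.0539). In the mean it passed in 6 of 22 alternative analyses. Among them were DESeq2 (-0.33, adjusted p = 0.004) and edgeR without WT control 1 (-0.37, 0.036) or without mutant IFNα 3 (-0.39, 0.0135). The others were scaling by library totals (-0.41) and limma with a pseudocount of 1 (-0.42) or 0.1 (-0.42). In those settings the median of all tested genes was itself below 0, at -0.09, -0.09 and -0.11. In the 8 libraries with lung transcripts the Hmox1 difference was much smaller, at -0.14 in the mean and -0.03 with IFNα. Of the mutant IFNα group that subset keeps only library 3, the highest of the group at 102 FPKM. Of the WT control group it keeps only library 1, the lowest of the group at 93.5 FPKM.

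The glutathione genes lay below or near their WT level. Gclm, the modifier subunit of glutamate-cysteine ligase, the first enzyme of glutathione synthesis, had 3.58, 4.01 and 3.68 FPKM in mutant IFNα libraries and 3.43, 3.26 and 2.53 in mutant controls. It had 5.89, 4.80 and 4.60 FPKM in WT IFNα libraries and 3.80, 3.79 and 5.80 in WT controls. Within each treatment all mutant libraries were below all WT libraries. The log2 difference was -0.42 ± 0.145 in controls, -0.34 ± 0.144 with IFNα and -0.38 ± 0.102 in the mean, and edgeR adjusted p was 0.335, 0.31 and 0.062. DESeq2 called it in the mean (-0.39, adjusted p = 0.00954).

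Gclc, the catalytic subunit of the same enzyme, ranged over 1.62 to 2.19 FPKM in the mutant line (median 1.74) and 1.83 to 3.19 in WT (median 2.14). Its line difference in the mean was -0.25 ± 0.134 (95% limits -0.53 and 0.04; edgeR adjusted p = 0.355). Slc7a11, the cystine importer that feeds glutathione synthesis, was the least abundant of the 10, at 0.300 to 0.565 FPKM in the mutant line and 0.272 to 0.538 in WT. The lines overlapped almost entirely, with a difference of 0.09 ± 0.151 (95% limits -0.23 and 0.42; edgeR adjusted p = 0.801).

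The thioredoxin genes overlapped between lines. Txnrd1, thioredoxin reductase 1, had 11.97, 15.4 and 10.3 FPKM in mutant IFNα libraries and 9.72, 11.6 and 10.7 in mutant controls, against 21.2, 14.0 and 14.4 in WT IFNα libraries and 10.7, 11.6 and 16.8 in WT controls. Srxn1, sulfiredoxin, which repairs over-oxidised peroxiredoxins, ranged over 32.3 to 47.1 FPKM in the mutant line and 36.4 to 58.1 in WT. Its line difference, with 2 matches in the stretch printed above, was -0.23 ± 0.0996 (edgeR adjusted p = 0.238). That of Txnrd1 was -0.24 ± 0.116 (0.304).

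G6pdx, glucose-6-phosphate dehydrogenase, supplies the NADPH that these enzymes and NQO1 consume. It had 44.9, 50.2 and 49.7 FPKM in mutant IFNα libraries and 47.7, 48.5 and 43.4 in mutant controls. WT IFNα libraries had 66.9, 58.0 and 55.2 FPKM, and WT controls 52.1, 56.5 and 68.4. All 6 mutant libraries were below all 6 WT libraries, the only one of the 9 for which this held, and 0.978% of all tested genes had the same order. The margin was small, at -0.23 ± 0.0707 in the mean (95% limits -0.38 and -0.08; edgeR adjusted p = 0.103, DESeq2 0.0115).

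Counted by treatment in TMM-scaled CPM, 4 of the 9 (Hmox1, Gclm, Gclc and G6pdx) had all mutant below all WT libraries in controls, an order found in 8.01% of all genes. With IFNα the same order held for 2 (Gclm and G6pdx), against 8.52%. The highest WT value often came from the same library. WT control library 3 was the highest of its group for 8 of the 10 genes (33.9% of all tested genes) and WT IFNα library 1 for 9 of the 10 (38.8%). Without WT control 3, 7 of the 9 estimates in controls were below 0. Gclc then stood at -0.08 and Gclm at -0.27 on the log2 scale, against -0.25 and -0.42 with it, and Hmox1 at -0.39. Without WT IFNα 1, 7 of the 9 estimates with IFNα were below 0, with Gclc at -0.09 against -0.24 with it, Gclm at -0.29 and Hmox1 at -0.20. None of the 9 passed in edgeR in either treatment without these libraries. In bulk RNA fewer cells with a transcript and less of it per cell cannot be told apart.

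IFNα changed none of the 9 past the threshold. In the mutant line edgeR called 0 of 9 (0.00569% of all genes) and in the WT line 0 of 9 (0.0227%), and unadjusted p under 0.05 was also reached by 0 in each, against 10.3% of all genes in the mutant line and 5.44% in WT. DESeq2 called 0 in both (0.952% of all genes in the mutant line and 0.387% in WT), and so did limma (0.0297% in each). All 9 estimates were positive in each line, with medians of 0.21 in the mutant line and 0.16 in WT, but this rested on single libraries. In the mutant line 7 were positive and 2 negative without mutant IFNα 3, and likewise with a term for lung transcripts. In WT 6 were positive and 3 negative without WT IFNα 1, and likewise without WT control 1. The largest were Slc7a11 in the mutant line, at 0.43 ± 0.215 (edgeR adjusted p = 0.508), and Txnrd1 in WT, at 0.33 ± 0.164 (0.946). The difference between the lines in the IFNα response was called for 0 of 9 by edgeR (0% of all genes), DESeq2 (0.0604%) and limma (0%), and 0 had an unadjusted edgeR p under 0.05 (5.17%).

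**Figure D3:**
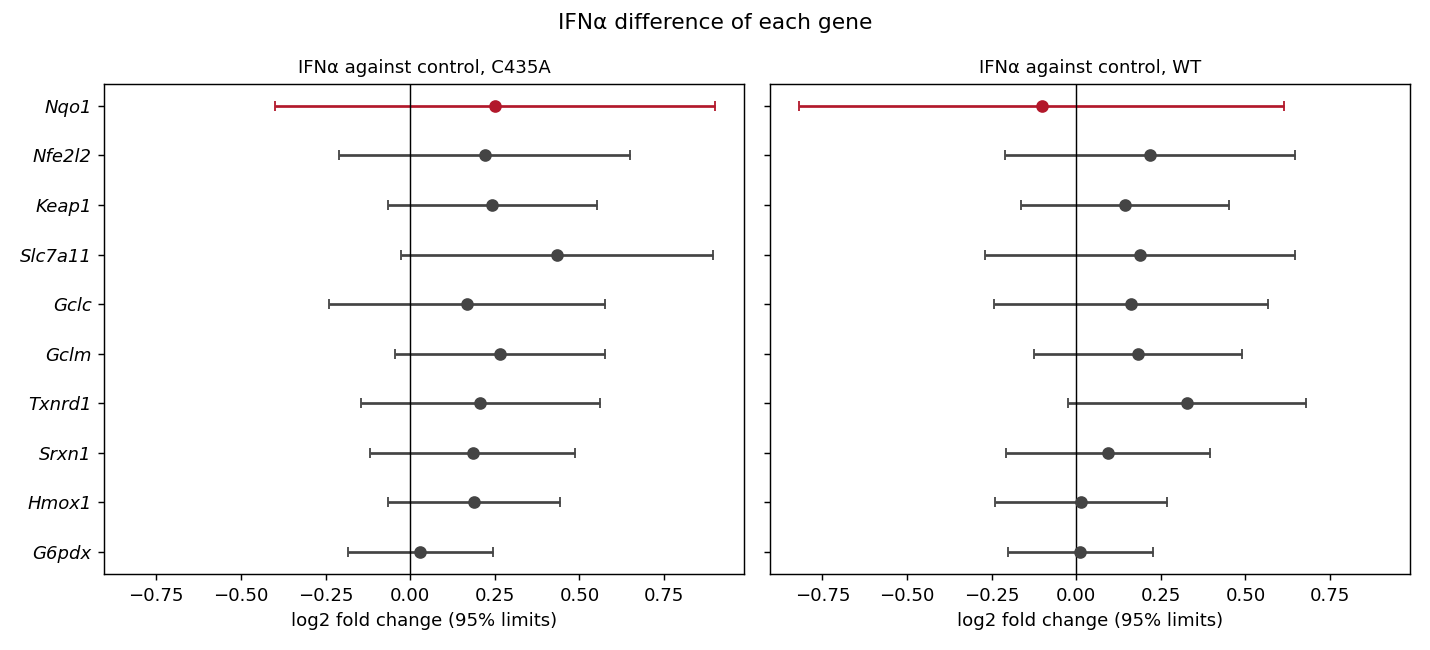
Log2 fold change of IFNα over control cells with 95% limits (horizontal axis), in the mutant line (C435A) at the left and WT at the right, one row per gene. The 9 genes other than Nqo1 lie between 0.03 and 0.43 in the mutant line and between 0.01 and 0.33 in WT; Nqo1 is at 0.25 and -0.10.

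In the wider set of NRF2 targets edgeR over all 12 libraries called no gene higher in the mutant line, while DESeq2 called 1, Blvrb. The set had 49 genes, of which 47 were tested: glutathione transferases, peroxiredoxins, pentose phosphate enzymes, ferritins, carbonyl reductases and export pumps. In edgeR 0 passed in controls (0.165% of all genes), while 2 passed with IFNα (0.597%) and 2 in the mean (2.8%), all lower in the mutant line. Unadjusted p under 0.05 gave 3 higher and 2 lower in controls (10.7% of all genes), 1 higher and 6 lower with IFNα (13.7%), and 4 higher and 8 lower in the mean (18.1%). The counts in controls and with IFNα are near that background. DESeq2 called 1 lower in controls (1.26% of all genes), and 1 higher and 2 lower both with IFNα (4.02%) and in the mean (7.29%). The medians were -0.07, -0.06 and -0.06, and 18 genes were positive and 29 negative in the mean. IFNα changed 0 of 47 in either line by edgeR (0.00569% of all genes in the mutant line and 0.0227% in WT). At an unadjusted p under 0.05 there were 6 higher and 6 lower in the mutant line (10.3% of all genes). In WT there were 1 higher and 4 lower (5.44%). Both of these counts lie above the share of all genes. DESeq2 called 1 in the mutant line (0.952%) and 0 in WT (0.387%).

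Both calls were glutathione-conjugating enzymes. Mgst1, a microsomal glutathione transferase, had 11.3, 9.17 and 8.44 FPKM in mutant IFNα libraries and 10.6, 12.6 and 9.61 in mutant controls, against 19.2, 26.2 and 22.7 in WT IFNα libraries and 23.1, 19.7 and 16.5 in WT controls. All 6 mutant libraries lay below all 6 WT libraries, an order found in 0.978% of all tested genes. Its log2 difference was -0.77 ± 0.190 in controls (edgeR adjusted p = 0.151), -1.16 ± 0.192 with IFNα (0.0163) and -0.96 ± 0.135 in the mean (0.00234). In controls it passed in 3 of 22 alternatives, which were DESeq2 (-0.78, adjusted p = 0.0122) and limma with a pseudocount of 1 (0.0417) or 0.1 (0.0476). The call in the mean held in all 22 alternatives. That with IFNα was lost with a term for lung transcripts (-1.08, 0.0766) and without WT IFNα 2 (-1.02, 0.0736), WT IFNα 3 (-1.13, 0.0743) or mutant IFNα 2 (-1.11, 0.0584).

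Gsta2, a soluble alpha-class transferase with close copies among which reads may be divided, averaged 2.63 ± 0.412 FPKM in mutant IFNα, 4.73 ± 0.450 in mutant control, 5.17 ± 0.216 in WT IFNα and 5.99 ± 0.811 in WT control libraries. The mutant IFNα group stood apart below the other 3. Its log2 difference was -0.89 ± 0.174 with IFNα (edgeR adjusted p = 0.0351) and -0.56 ± 0.122 in the mean (0.0271). The call with IFNα held in 9 of 22 alternatives, with adjusted p up to 0.163, and that in the mean in 16 of 22, up to 0.0813. Leaving out any single library other than WT control 1 or WT control 3 ended the call with IFNα. The call in the mean ended without WT control 1 or 3, mutant control 2 or 3, or WT IFNα 2 or 3.

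Blvrb, a biliverdin reductase that acts after heme oxygenase, ran the other way and passed in DESeq2 but not in edgeR over all 12 libraries, at 0.51 ± 0.121 with IFNα (edgeR adjusted p = 0.077; DESeq2 0.00395) and 0.31 ± 0.0857 in the mean (0.0702; DESeq2 0.0159). In the 8 libraries with lung transcripts the difference was 0.77 with IFNα and 0.45 in the mean. Of the mutant IFNα group that subset keeps only library 3, the highest for Blvrb. Blvrb had 56.5, 61.8 and 77.7 FPKM in mutant IFNα libraries, while the other 9 libraries held 46.4 to 52.3 FPKM. In controls the next smallest p-values belonged to Mgst2, a second microsomal transferase, at 1.10 ± 0.416 from levels of 0.433 FPKM or less (edgeR adjusted p = 0.375), and Aldh7a1, an aldehyde dehydrogenase, at -0.31 ± 0.122 (0.397).

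**Figure D4:**
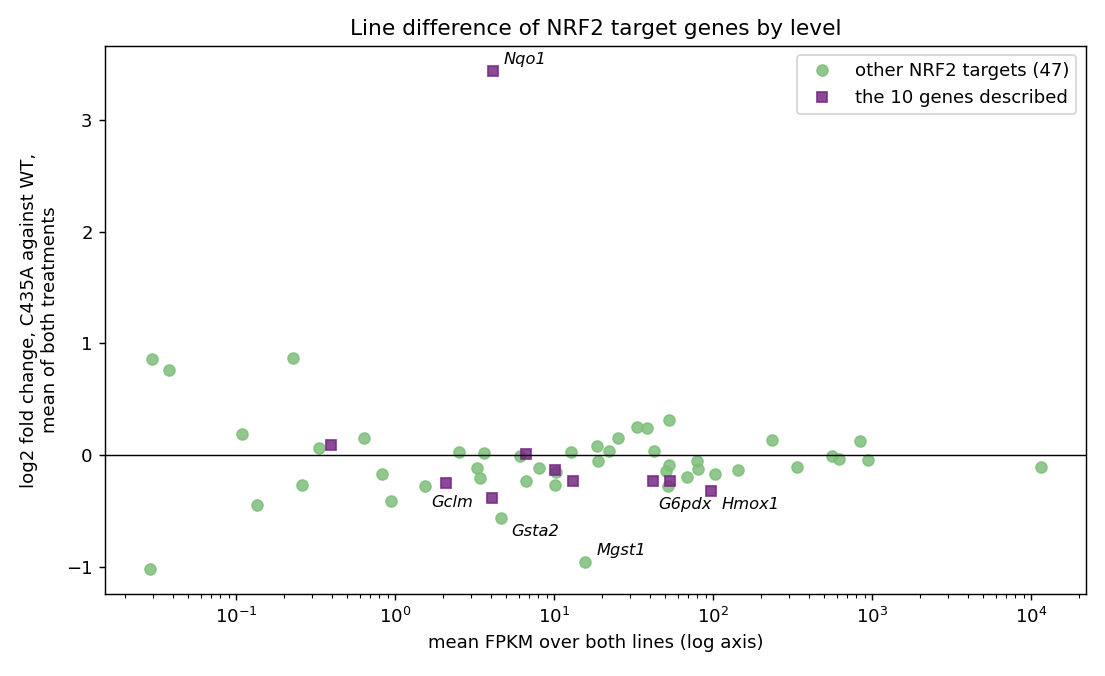
Log2 fold change of mutant (C435A) over WT cells, mean of both treatments (vertical axis), against the mean FPKM of both lines (log axis), for the 10 genes (squares) and 47 other NRF2 targets (circles). Nqo1 at 3.44 stands alone above the cloud; the other 47 targets lie between -1.02 and 0.87, with Mgst1 at -0.96.

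Nqo1 is also a textbook target of AHR. Of 8 AHR-linked genes 7 were in the table and 6 were tested. In edgeR 0 passed in any line comparison, where 0.165%, 0.597% and 2.8% of all genes did in controls, with IFNα and in the mean. An unadjusted p under 0.05 was reached by 0, 1 and 0 of the 6, against 10.7%, 13.7% and 18.1% of all genes. DESeq2 called 0, 1 and 0, against 1.26%, 4.02% and 7.29%. Counts of 0 or 1 among 6 genes cannot be told apart from these shares. Arnt, the partner of AHR, was at -0.26 ± 0.128 in controls, -0.11 ± 0.127 with IFNα and -0.19 ± 0.0901 in the mean. Tiparp, a sensitive AHR target, was at 0.13 ± 0.221, 0.17 ± 0.221 and 0.15 ± 0.157, with edgeR adjusted p of at least 0.669. Cyp1b1 was at 0.0509 FPKM or less in every library. Aldh3a1, which had the smallest p with IFNα, was listed at 0 in the 3 mutant IFNα libraries. It reached 0.172, 1.70 and 0.178 FPKM in mutant controls, 0.0518, 0.118 and 1.10 in WT IFNα libraries and 0.137, 0 and 0.192 in WT controls.

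None of the genes around Nqo1 passed in a line comparison. Within 500 kb of its deposited start the table holds 18 genes, of which 16 were tested: Utp4, Rpl10-ps2, Sntb2, Vps4a, Gm16209, Pdf, Cog8, Nip7, Terf2, Cyb5b, Rps18-ps3, Nfat5, Nob1, Wwp2, Rps26-ps1 and Psmd7. The others were Mir7075 and Gm8940. In edgeR 0 of 16 passed in controls, with IFNα and in the mean, where 0.165%, 0.597% and 2.8% of all genes did. An unadjusted p under 0.05 was reached by 1, 1 and 3, against 10.7%, 13.7% and 18.1% of all genes. DESeq2 called 0 in each (1.26%, 4.02% and 7.29%). Limma called 0 of the 12 that passed its FPKM filter (0.347%, 0.555% and 3.93%). Counts of 0 among so few genes cannot be told apart from these shares. The differences ran over -0.65 to 0.67 in controls, -0.39 to 0.44 with IFNα and -0.29 to 0.50 in the mean. The direct neighbours Nfat5 and Nob1 were at 0.10 ± 0.138 and 0.11 ± 0.0832.

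**Figure D5:**
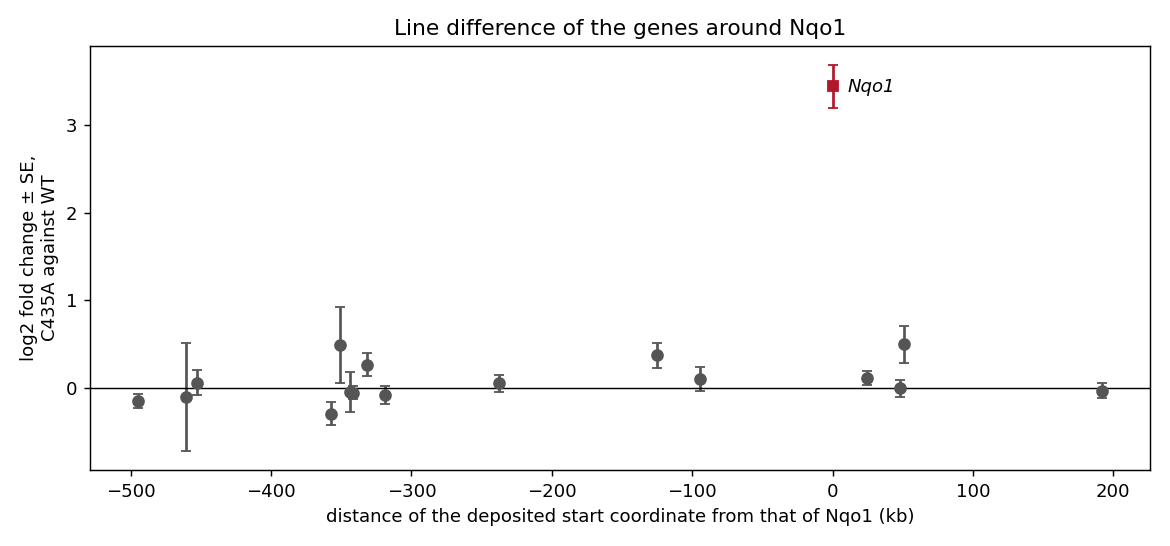
Log2 fold change ± SE of mutant (C435A) over WT cells, mean of both treatments (vertical axis), against the distance in kb between the deposited start coordinates of each gene and of Nqo1 (horizontal axis). Nqo1 (square) is at 3.44 and its 16 tested neighbours (circles) lie between -0.29 and 0.50.

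The 5 genes whose log2 CPM ran most like that of Nqo1 over the 12 libraries were Isg20, U2af1, Fabp3, Nt5c3b and Stard5. They were sought among 4795 genes with a mean of at least 5 FPKM, leaving out predicted genes (Gm and Rik names) and pseudogenes. Pearson's r was 0.954, 0.953, 0.952, 0.952 and 0.947, and Spearman's rho 0.783, 0.881, 0.692, 0.895 and 0.832. The libraries fall into 2 clusters by line, so these values mostly follow the line difference and are a description. Fabp3, a fatty acid carrier of heart muscle, averaged 33.2 ± 2.80 FPKM in mutant IFNα, 42.3 ± 6.83 in mutant control, 9.49 ± 0.289 in WT IFNα and 12.9 ± 2.05 in WT control libraries. Isg20, an interferon-induced exonuclease, averaged 26.2 ± 1.73, 27.4 ± 1.75, 16.4 ± 0.957 and 19.4 ± 1.60 FPKM in the same groups. The pattern of U2af1, a splicing factor, had a far smaller amplitude, at 139 ± 3.94, 132 ± 6.16, 121 ± 3.80 and 122 ± 6.09 FPKM. Nt5c3b, a nucleotidase, averaged 54.7 ± 1.20, 50.7 ± 3.70, 42.9 ± 0.607 and 42.2 ± 1.63 FPKM in those groups, and Stard5, a sterol carrier, 10.9 ± 0.488, 9.48 ± 0.733, 6.43 ± 0.380 and 7.34 ± 0.762 FPKM. None of the 5 belongs to the NRF2 lists used here.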

How the data were processed

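RNA of B16F10 cells was sequenced in 12 libraries, poly(A)-selected and read as pairs per the labels' protocols. GRCm38, HISAT2 2.0.4, StringTie 1.3.4d, cutadapt 1.9, UMI-tools, edgeR and DESeq2 stand in the submitters' processing notes, without roles. The sources used here do not give the counting step or its use of strand and identifiers. The authors deposited whole-number counts per gene, not scaled for depth. Of deposited counts up to 30, 33.6% were multiples of 4 (23.3% of whole numbers are). A count may therefore not stand for 1 fragment, which was not tested. FPKM values, per the file headers, came from the authors scaled to length and library. Deposited coordinates differ from GRCm38 and were not converted.

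Counts were tested with edgeR 4.0.16 in R 4.3.3: TMM, the default filter, 1 quasi-likelihood fit of 4 group means (common biological coefficient of variation 28.9%), two-sided, Benjamini-Hochberg adjustment over all 17590 genes kept, threshold 0.05. The 6 comparisons were mutant against WT in controls, with IFNα and in the mean of both, IFNα in each line, and the interaction. DESeq2 1.42.0 and limma 3.58.1 on log2(FPKM + 1), for genes with at least 1 FPKM in 3 libraries, were alternatives, and limma fold changes understate low genes. The code was tested on simulated counts. Same-numbered libraries correlated at -0.284 to 0.129, 1 of 18 pairs over 0.1, so the numbers were not taken to pair them.

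The members and lists were chosen with earlier results of these data known. Genes named are the 10 members, list genes that passed or had the 3 smallest p-values in a line comparison, genes within 500 kb of Nqo1 and the 5 most like it. Promoters come from RefSeq (GRCm38.p6).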

Additional observations from a re-analysis of the deposited data

How the results depend on the processing

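The number of genes passing varied with the tool. DESeq2 called 232 genes in the line comparison of controls, 632 with IFNα and 1224 in the mean, 69 for IFNα in WT, 175 for IFNα in the mutant line and 14 in the interaction. In edgeR these were 29, 105, 493, 4, 1 and 0. Among the 9 members DESeq2 called 1 in controls and 3 in the mean, and among the other NRF2 targets 1 in controls, 1 for IFNα in the mutant line, and 1 higher and 2 lower both with IFNα and in the mean. Scaling by library totals gave 49 genes with IFNα, 1 member in the mean and 2 genes for IFNα in the mutant line. It moved the median of all genes to -0.09 in each line comparison. Without the filter 281 genes passed in the mean and 1 target with IFNα. Limma with a pseudocount of 1 gave 56 genes with IFNα, 1 target in controls, 1 member in the mean and 3 genes for IFNα in the mutant line. With a pseudocount of 0.1 these were 59, 1, 1 and 3, and 2 for IFNα in WT. The median of all tested genes in the mean was -0.09 with a pseudocount of 1 and -0.11 with 0.1. Without an FPKM filter limma gave 38 with IFNα, 174 in the mean, 1 for IFNα in WT and 0 in the mutant line. A term for lung transcripts left 0 targets with IFNα and 1 gene for IFNα in WT. The 8 libraries with lung transcripts, chosen after seeing the data, gave 16 genes in controls, 1136 with IFNα, 742 in the mean, 1135 for IFNα in the mutant line and 47 in the interaction, and 5, 4 and 7 targets with IFNα, in the mean and for IFNα in the mutant line. In that subset the mutant IFNα group is library 3 alone and the WT control group library 1 alone. The causes of these shifts were not tested.

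With the replicate number as a block, which the pairing check did not back, 17 genes passed in controls, 59 with IFNα, 314 in the mean, 2 for IFNα in WT and 0 in the mutant line, with 1 target with IFNα.

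Leaving out 1 library at a time gave 11 to 58 genes in controls, 21 to 112 with IFNα, 199 to 550 in the mean, 0 to 7 for IFNα in WT and 0 to 2 in the mutant line. It gave 0 to 1 members in the mean, 0 to 2 targets with IFNα and 1 to 4 targets in the mean.

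Over the 22 alternatives the members, with Nqo1 for IFNα only, gave 1220 tests in all, of which 9 passed. The alternatives reuse the same libraries, so repeated calls of a gene are not separate evidence. The share of all genes over the same settings was not computed, so the count is not read as few or many. All 9 were lower in the mutant line, and 7 of them were Hmox1. Nqo1 stayed higher in the mutant line in each alternative, by 2.31 to 3.67 in the mean of both treatments, the lowest on the log2(FPKM + 1) scale of limma. Nfe2l2 changed sign between alternatives in every line comparison, so it has no direction here. Within 1 treatment the SE of a line difference was 0.0999 (G6pdx) to 0.215 (Slc7a11) among the 9 genes, on the log2 scale.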
